A study of Drosophila melanogaster with 12 samples.

Results

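A set of 8 genes of the *Drosophila* sex determination and dosage compensation pathways were followed through input RNA and anti-m6A immunoprecipitated RNA (meRIP) of third-instar larval brains. The members were named by gene identifier and comprised *Sxl* (FBgn0264270), *tra* (FBgn0003741), *tra2* (FBgn0003742), *dsx* (FBgn0000504), *fru* (FBgn0004652), *msl-2* (FBgn0005616), *lncRNA:roX1* (FBgn0019661) and *lncRNA:roX2* (FBgn0019660). All 8 were found among the 17807 genes in the table, and all 8 passed the filter on low counts in every comparison. The brain lobes came from 3 genotypes reared at 25 °C: Oregon-R-P2 larvae (Oregon_R in the labels, here wildtype, neuron-biased), larvae in which *insc-Gal4* drove *UAS-aPKC-CAAX*, a membrane-targeted kinase that expands neuroblasts (neuroblast-biased), and *Mettl3* null larvae, which lack the m6A methyltransferase. Each genotype gave 2 input and 2 meRIP libraries, 12 in all. The *insc* driver acts in neuroblasts, so the neuroblast-biased brains still held other cells, and wildtype brains were not made of neurons alone. The sex of the larvae is not given in the sources used here.

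In flies, the number of X chromosomes sets whether *Sxl* makes a functional RNA-binding protein, and only females make it. Female Sxl protein binds runs of U in RNA, maintains the female splicing of its own transcript, directs the female splicing of *tra* and blocks translation of *msl-2*. Tra acts together with Tra2 on *dsx* and *fru*, whose sex-specific proteins are transcription factors that shape body, brain and behaviour. In males, where *msl-2* is translated, its protein joins other MSL proteins and the noncoding *roX* RNAs in a complex that raises transcription of the single X chromosome. m6A placed by the Mettl3 complex and read by Ythdc1 in the nucleus is known to assist the female splicing of *Sxl*. Counts per gene do not separate splice forms, so the values below are totals over the male and female transcripts of each gene.

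Library totals ran from 4220420 to 31352131 counts, and the 6 input libraries were shallower than all meRIP libraries but 1. *Mettl3*, the deleted gene, stood at 22.8 and 22.6 CPM (counts scaled to library size and TMM factors) in wildtype input and at 9.05 and 2.25 in *Mettl3* null input. The neuroblast marker list was higher in neuroblast-biased than in wildtype input for 5 of 5 genes, and the neuron list lower for 5 of 5. The glia list was lower for 4 of 4 and the salivary gland list for 6 of 6. The 6 fat body and the 3 tested germline genes were not called in that input comparison. In meRIP, 5 of 6 fat body genes were called lower in neuroblast-biased brains than in either other genotype, and the germline gene *bam* higher. Summed fat body markers stood at 7.51 and 5.50 CPM in neuroblast-biased meRIP, against 70.2 and 48.1 for wildtype. The *Mettl3* null meRIP libraries held 95.9 and 15.7. Their part in the meRIP differences below was not tested. Of the 4 glia markers, limma-voom called 1, *Gs2*, as higher in *Mettl3* null than in wildtype brains, in input and in meRIP. Summed glia markers stood at 429 and 439 CPM in wildtype and 726 and 810 in *Mettl3* null input, and at 559 and 656 in wildtype and 1254 and 1383 in *Mettl3* null meRIP, and their part in the differences from *Mettl3* null brains below was not tested. Summed salivary gland markers stood at 173 to 179 CPM in wildtype input, at 0 in both neuroblast-biased input libraries, at 7.78 to 17.1 in *Mettl3* null input, and at 515 to 585 in wildtype meRIP. Neuroblast-biased input replicate 1 stood apart in missing genes: 437 genes were at 0 there with 50 or more counts in replicate 2, against at most 211 in any other input library and at most 1 in any meRIP library. Y-linked genes could not serve to compare the sexes, since none of 11 passed the filter and their summed level was at most 1.11 CPM in any library.

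Per kilobase of exon, *lncRNA:roX1* was the most abundant of the 8 transcripts in wildtype input, at 228 CPM per kb (mean of 2 libraries). *Sxl* followed at 41.8 and *lncRNA:roX2* at 40.6, with library values that crossed. *tra2*, a gene of chromosome arm 2R (19.3), *msl-2* (16.2) and *tra* (15.3) lay close together, *fru* stood at 6.55 and *dsx* at 1.44. In neuroblast-biased input *fru* stood at 25.2 CPM per kb, and *lncRNA:roX2* at 20.7, with 22.9 against 14.0 in replicate 1 and 27.4 against 27.5 in replicate 2. These are levels scaled by exon length, and all other levels below are CPM without length scaling.

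**Figure D1:**
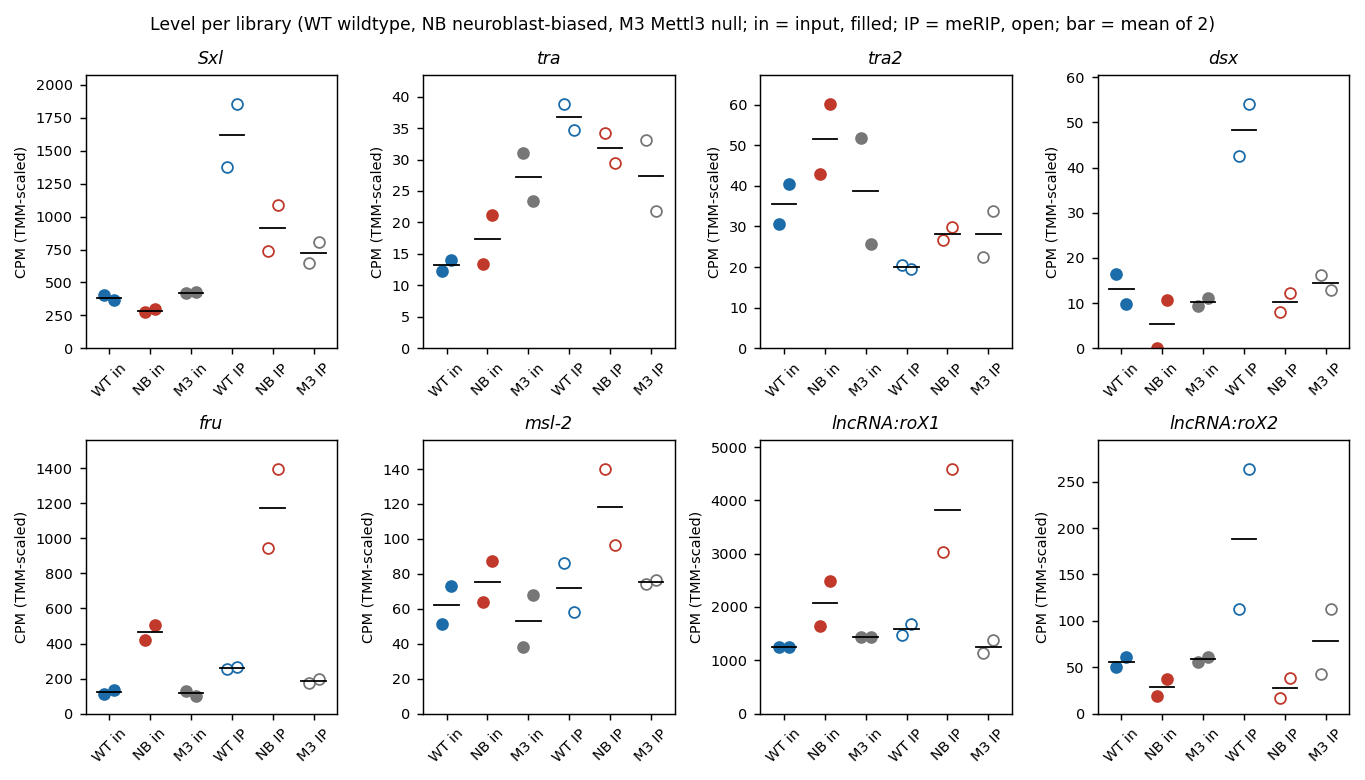
Level of each of the 8 genes in the 12 libraries, in CPM on a linear axis from 0. Points are libraries (filled for input, open for meRIP) and bars are means of 2. Input *fru* stands at 421 and 506 in neuroblast-biased brains and between 100.3 and 132 in the other input libraries, while *dsx* meRIP is above 40 only in wildtype brains.

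The 9 comparisons were made with limma-voom over all genes, of input levels, of meRIP levels and of the meRIP to input ratio between genotypes, and a gene is described as called when its Benjamini-Hochberg adjusted p was under 0.05. Comparisons of the same library kind share libraries, and the ratio comparisons reuse the input and meRIP libraries. Between neuroblast-biased and wildtype input, 2 of 8 members were called, against 13.4% of 9423 genes tested. Between *Mettl3* null and wildtype input, 0 of 8 were called, against 0.255% of genes. limma-voom gave no member an unadjusted p under 0.05 in that comparison, edgeR called 0 and gave none under 0.05, and DESeq2 called 0 and gave 1. Of all genes these tests put 595, 347 and 890 under 0.05. Between neuroblast-biased and *Mettl3* null input, 3 of 8 were called, against 17.2% of genes.

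In meRIP, 3 of 8 members were called between wildtype and *Mettl3* null brains (22.7% of 9493 genes), 4 of 8 between neuroblast-biased and *Mettl3* null brains (38.8%) and 6 of 8 between neuroblast-biased and wildtype brains (43.5%). Both meRIP comparisons with *Mettl3* null brains depend on scaling. For wildtype against *Mettl3* null meRIP, TMM scaling gave 1576 genes higher and 580 lower, and scaling by library size alone gave 896 higher and 2962 lower, with the median log2 fold change of all genes 0.58 lower. In neuroblast-biased against *Mettl3* null meRIP the split was 1955 higher and 1727 lower with TMM scaling and 800 higher and 3167 lower by library size alone. The meRIP to input ratio was called for 1 of 8 members between wildtype and *Mettl3* null brains (5.64% of 9918 genes) and for 1 of 8 between neuroblast-biased and *Mettl3* null brains (4.7%). Between neuroblast-biased and wildtype brains the ratio was called for 0 of 8 members and 0.0% of genes by limma-voom, with 674 genes and 1 member at an unadjusted p under 0.05, while edgeR called 2 genes and DESeq2 33, none of them a member. Scaling by library size alone gave 273 genes higher and 238 lower in the first of these ratios, against 518 and 41 with TMM factors, and 201 higher and 74 lower in the second, against 442 and 24. Library values of the groups did not overlap for 5 of 8 members between neuroblast-biased and wildtype input (57.0% of all genes tested), for 3 between *Mettl3* null and wildtype input (38.8%) and for 5 between neuroblast-biased and *Mettl3* null input (53.3%). In meRIP the counts were 6 for wildtype against *Mettl3* null brains (63.5%), 5 for neuroblast-biased against *Mettl3* null brains (68.7%) and 8 for neuroblast-biased against wildtype brains (72.5%). With 8 genes these counts are a description, and none was tested against the background.

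**Figure D2:**
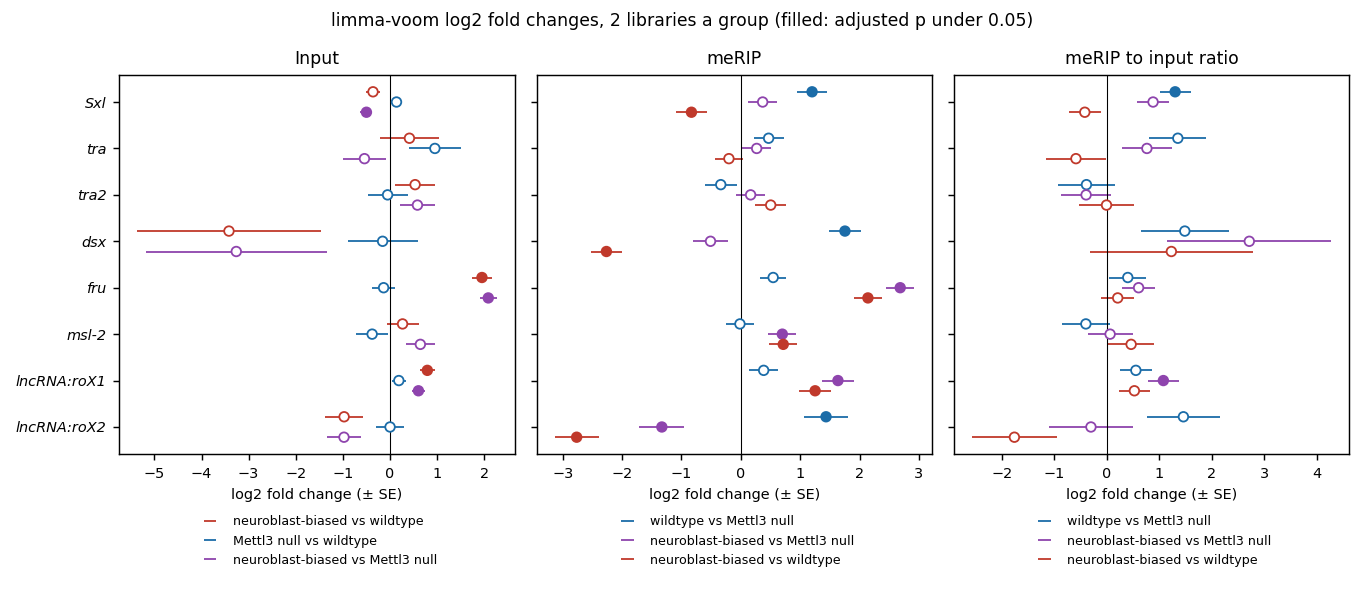
log2 fold changes with standard errors (SE) of the 8 genes in input, meRIP and the meRIP to input ratio, by limma-voom with 2 libraries a group. Filled points have an adjusted p under 0.05. *fru* and *lncRNA:roX1* are right of 0 and *lncRNA:roX2* and *dsx* left of it in neuroblast-biased against wildtype meRIP.

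*Sxl*, the master switch of female development, lies on X:7074550-7098053 (minus strand, BDGP6.54) with 25 annotated transcripts. Its transcribed strand holds 43 runs of at least 8 U (written T in the DNA sequence), 20 of them in exons, and 0.0177% of 5635 genome windows of the same length, read on the forward strand, hold as many. The other strand of the gene holds 24. The 2 longest, shown because such runs are the binding sites known for Sxl protein, lie in the annotated 3′ UTR, with the run in capitals and the RefSeq Release 6 genome as the source.
Sxl X:7078043-7078055: actacTTTTTTTTTTTTTgtatg
Sxl X:7077347-7077359: atatgTTTTTTTTTTTTTaataa
Such a match describes the letters only and is no evidence of binding in these brains.

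In meRIP, *Sxl* was higher in wildtype than in either other genotype. Input levels were 401 and 368 CPM in wildtype, 272 and 299.7 in the neuroblast-biased and 421 and 427 in the *Mettl3* null libraries. The meRIP levels were 1378 and 1856 CPM in wildtype, 737 and 1088 in the neuroblast-biased and 648 and 806 in the *Mettl3* null libraries. Both wildtype meRIP libraries lay above the other 4 meRIP libraries, and neuroblast-biased and *Mettl3* null meRIP overlapped. The wildtype meRIP level was 2.30-fold that of *Mettl3* null brains (a log2 value of 1.2, SE 0.25, adjusted p = 0.00055), and the neuroblast-biased level was below wildtype by a log2 difference of -0.83 (SE 0.26, adjusted p = 0.010). Summed salivary gland markers were also highest in wildtype meRIP (515 and 585 CPM, against at most 38.9 in the other meRIP libraries). In neuroblast-biased against wildtype meRIP all 5 neuron, all 4 glia and 5 of 6 fat body markers were called lower too. All 5 neuroblast markers were called higher there. The part of these lists in the result was not tested. Without wildtype meRIP replicate 2 that second difference was -0.60 (adjusted p = 0.20), and without neuroblast-biased meRIP replicate 1 it was -0.57 (adjusted p = 0.11).

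The ratio of meRIP to input CPM for *Sxl* was 4.21 in wildtype, 3.19 in the neuroblast-biased and 1.72 in the *Mettl3* null brains, where the medians over all genes with input were 0.899, 1.03 and 0.980. Such ratios depend on the scaling between library kinds, since TMM factors ran from 1.20 to 1.27 in input and from 0.656 to 1.02 in meRIP libraries. In wildtype brains 94.5% of 9565 genes had a lower ratio. The ratio in *Mettl3* null brains also lay above 87.4% of 9286 genes. The difference in ratio between wildtype and *Mettl3* null brains was a log2 value of 1.30 (SE 0.30, adjusted p = 0.016 by limma-voom). It kept its direction in all 22 other fits, and its adjusted p passed the threshold in 9 of 10 alternative settings and in 6 of 12 fits with a library left out. The value fell to 0.80 with library size scaling alone (adjusted p = 0.052). Leaving out either wildtype input replicate (adjusted p = 0.089 and 0.18), either *Mettl3* null input replicate (0.066 and 0.089), wildtype meRIP replicate 2 (0.051) or *Mettl3* null meRIP replicate 1 (0.15) ended the call, with log2 values from 1.13 to 1.36. For neuroblast-biased against *Mettl3* null brains the difference was 0.88 (SE 0.30, adjusted p = 0.12), and without neuroblast-biased meRIP replicate 1 it was 1.24 (adjusted p = 0.0063). Between neuroblast-biased and wildtype brains the ratio differed by -0.42 (SE 0.30, adjusted p = 0.76).

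In input RNA, *Sxl* of neuroblast-biased brains was below that of *Mettl3* null brains, by a log2 difference of -0.50 (SE 0.13, adjusted p = 0.015). Leaving out any of 4 libraries brought the adjusted p to between 0.050 and 0.063, namely wildtype replicate 1, neuroblast-biased replicate 1 and both *Mettl3* null replicates, with log2 values from -0.51 to -0.43. Against wildtype input the difference was -0.36 (SE 0.14, adjusted p = 0.12), and DESeq2 called it (adjusted p = 0.00079). In all these bulk comparisons, fewer cells that express a gene and less RNA per cell cannot be told apart. The annotated 5′ UTRs of *Sxl* hold 21 copies of AAAC, the core letters in which m6A is placed in fly mRNA, in 1584 bases, or 13.3 per kb against a median of 8.26 over 8493 genes. The density was 14.8 per kb in *msl-2*, 9.31 in *tra2*, 9.09 in *fru* and 6.04 in *dsx*, the last below the median, while the annotated 5′ UTR of *tra* spans 7 bases and holds none.

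**Figure D3:**
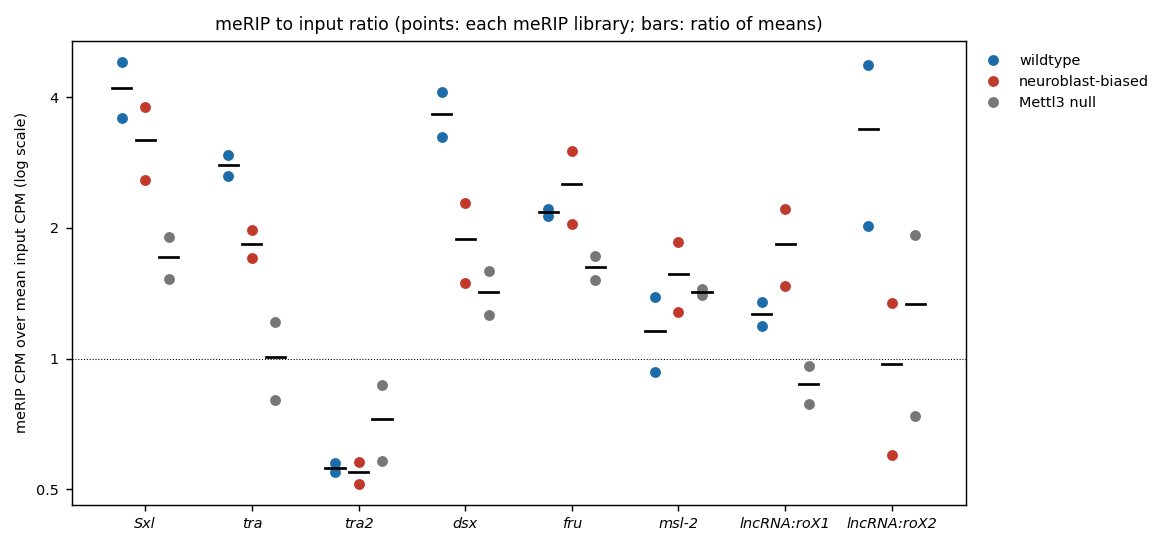
meRIP CPM over the mean input CPM of the same genotype, on a log2-spaced axis, for each of the 8 genes. Points are the 2 meRIP libraries of a genotype and bars are ratios of mean CPM. *Sxl*, *tra*, *dsx* and *lncRNA:roX2* have their highest ratios in wildtype brains, at 4.21, 2.79, 3.67 and 3.38, and *tra2* is under 1 in all genotypes.

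*tra* (3L:16590059-16591050, minus strand), the splicing regulator that Sxl controls in females, and *tra2*, its RNA-binding partner present in both sexes, were called in none of the 9 comparisons by limma-voom with TMM scaling. The intron of *tra* holds 1 run of at least 8 U on its transcribed strand, as do 23.1% of 133599 windows of that length (at least 1). It is shown because Sxl is known to act on *tra* splicing through a U run in this intron, with the run in capitals.
tra 3L:16590935-16590942: tgttgTTTTTTTTctagt
Exons of *tra* overlap *l(3)73Ah* on the other strand over 8.58% of their length, and whether the counting used strand is not given in the sources used here.

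*tra* stood at 12.3 and 14.1 CPM in wildtype input, 13.4 and 21.2 in neuroblast-biased input and 31.0 and 23.4 in *Mettl3* null input. In meRIP it stood at 38.8 and 34.6 CPM in wildtype, 34.3 and 29.5 in the neuroblast-biased and 33.0 and 21.8 in the *Mettl3* null brains. Both *Mettl3* null input libraries were above the other 4, with a log2 difference from wildtype of 0.95 (SE 0.55, adjusted p = 0.83), while the meRIP levels were close. Its meRIP to input ratio was 2.79 in wildtype, 1.84 in the neuroblast-biased and 1.01 in the *Mettl3* null brains. The wildtype against *Mettl3* null difference in ratio was a log2 value of 1.35 (SE 0.54, adjusted p = 0.20), with a wider error than that of *Sxl*, and DESeq2 called it (adjusted p = 0.045).

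*tra2* stood at 30.5 and 40.5 CPM in wildtype input, 43.0 and 60.2 in neuroblast-biased input and 51.8 and 25.7 in *Mettl3* null input. Its meRIP levels were 20.4 and 19.5 CPM in wildtype, 26.6 and 29.9 in the neuroblast-biased and 22.5 and 33.7 in the *Mettl3* null brains. The 2 *Mettl3* null input libraries differed 2.01-fold from each other, more than any pair of the input means. Its meRIP to input ratio of 0.561 in wildtype brains was below the median of all genes, with 23.3% of genes lower. Between wildtype and *Mettl3* null meRIP the log2 difference was -0.34 (SE 0.27, adjusted p = 0.41) with TMM scaling and -0.93 (adjusted p = 0.022) with library size scaling alone. Between neuroblast-biased and wildtype meRIP the log2 difference was 0.50 (SE 0.26, adjusted p = 0.11).

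*dsx* (3R:7924323-7967408, minus strand) encodes the transcription factor at the end of the somatic sex pathway. Its transcribed strand holds 6 copies of the 13-base repeat element through which Tra and Tra2 are known to direct female splicing. All lie within 3R:7935076-7935359 in an annotated 3′ UTR. None of 3073 windows of the same length holds as many, read on the forward strand, where the *dsx* sites themselves do not count. The 6 copies have 4 different sequences, the first of them present 3 times, and the 7 bases ATCAACA that all copies share are in capitals.
dsx 3R:7935347-7935359: tcttcaATCAACA
dsx 3R:7935233-7935245: tctacaATCAACA
dsx 3R:7935181-7935193: tcaacaATCAACA
dsx 3R:7935076-7935088: tcaacgATCAACA
*fru* (3R:18414273-18545586, minus strand), whose male-specific proteins pattern courtship circuits, holds 2 copies in an annotated 5′ UTR, and 0.694% of 1008 windows of its length hold as many. They are shown because *fru* is the other known target of Tra and Tra2.
fru 3R:18513675-18513687: tcatcaATCAACA
fru 3R:18513640-18513652: tcttcaATCAACA

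In meRIP *dsx* was high in wildtype brains only. It stood at 42.6 and 54.1 CPM in wildtype, 8.05 and 12.3 in the neuroblast-biased and 16.2 and 12.8 in the *Mettl3* null meRIP, so that both wildtype libraries lay above the other 4. The wildtype level was 3.37-fold that of *Mettl3* null brains (log2 1.75, SE 0.28, adjusted p = 1.6e-05). The neuroblast-biased level was below wildtype by a log2 difference of -2.26 (SE 0.26, adjusted p = 7.4e-08). Both calls were kept in all 10 alternative settings and in all 6 fits with a library left out. Summed salivary gland markers moved with these differences, at 515 and 585 CPM in wildtype meRIP, 2.86 and 3.05 in neuroblast-biased meRIP and 22.8 and 38.9 in *Mettl3* null meRIP. All 5 tested genes of the list of 6 were called for wildtype against *Mettl3* null meRIP, all with wildtype higher. In neuroblast-biased against wildtype meRIP those 5 were called lower, as were all 5 neuron, all 4 glia and 5 of 6 fat body markers. All 5 neuroblast markers were called higher there. The part of these lists in the result was not tested.

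In input *dsx* stood at 16.5 and 9.85 CPM in wildtype, 0 and 10.8 in the neuroblast-biased and 9.35 and 11.05 in the *Mettl3* null brains. The value of 0 belongs to neuroblast-biased replicate 1, where *dsx* had 0 counts against 117 in replicate 2. Of 469 genes with 100 to 130 counts in replicate 2, 67 (14.3%) were likewise at 0 in replicate 1. The fitted input difference from wildtype, a log2 value of -3.42 (SE 1.94, adjusted p = 0.28), rests on that library and was -0.05 (adjusted p = 0.97) without it. The meRIP to input ratio of *dsx* was 3.67 in wildtype and 1.42 in *Mettl3* null brains, a log2 difference of 1.49 in the fit (SE 0.84, adjusted p = 0.40). In neuroblast-biased brains the ratio of mean CPM was 1.89. The fitted ratio difference from wildtype there was 1.23 (SE 1.56, adjusted p = 0.88), opposite in sign to the meRIP difference. It ran from -2.17 to 5.20 with a library left out, so the direction of this ratio difference is not settled.

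*fru* was higher in neuroblast-biased brains than in both other genotypes, in input and in meRIP. Its input levels were 109 and 132 CPM in wildtype, 421 and 506 in the neuroblast-biased and 131 and 100.3 in the *Mettl3* null brains. Its meRIP levels were 257 and 267 CPM in wildtype, 946 and 1395 in the neuroblast-biased and 176 and 199.9 in the *Mettl3* null brains. Neuroblast-biased libraries lay above all others of their kind. In input the difference from wildtype was 3.87-fold (log2 1.95, SE 0.21, adjusted p = 2.2e-05) and that from *Mettl3* null brains 4.25-fold (log2 2.09, SE 0.18, adjusted p = 2.8e-06). In meRIP the same differences were 4.41-fold (log2 2.14, SE 0.23, adjusted p = 3.2e-08) and 6.43-fold (log2 2.68, SE 0.23, adjusted p = 1.1e-09). All 4 calls were kept in every alternative setting and every fit with a library left out. Summed neuroblast markers moved with *fru*, at 401 to 466 CPM in wildtype and *Mettl3* null input and 2128 to 2185 in neuroblast-biased input, and their part in the result was not tested.

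The ratio of meRIP to input for *fru* was 2.17 in wildtype, 2.52 in the neuroblast-biased and 1.62 in the *Mettl3* null brains, and no difference in ratio was called. For neuroblast-biased against *Mettl3* null brains it was a log2 value of 0.61 (SE 0.31, adjusted p = 0.32), and 0.95 (adjusted p = 0.028) without neuroblast-biased meRIP replicate 1. Between wildtype and *Mettl3* null meRIP, *fru* differed by 0.54 (SE 0.22, adjusted p = 0.070), which passed the threshold in 3 of 10 alternative settings and was -0.02 with library size scaling alone (adjusted p = 0.96). Without neuroblast-biased meRIP replicate 1 or replicate 2 it also passed (adjusted p = 0.033 each).

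*msl-2* (2L:3462218-3466112, minus strand) encodes the subunit whose presence allows the dosage compensation complex to form in males. Its exons hold 4 runs of at least 8 U, as many as 6.58% of 34025 windows of its length. All 4 lie in annotated UTRs and are shown because Sxl is known to block *msl-2* translation through U runs at both ends of the transcript, with the 5′ UTR runs first and the run in capitals.
msl-2 2L:3466037-3466047: ggtaaTTTTTTTTTTTagttg
msl-2 2L:3465934-3465949: accaaTTTTTTTTTTTTTTTTgcacg
msl-2 2L:3462580-3462588: ctcaaTTTTTTTTTaatac
msl-2 2L:3462393-3462401: aaaccTTTTTTTTTaatag
Other annotated features, *mir-4971* among them, overlap 12.1% of its exon length on the same strand.

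*msl-2* stood at 51.3 and 73.2 CPM in wildtype input, 64.0 and 87.1 in neuroblast-biased input and 38.2 and 67.6 in *Mettl3* null input. These ranges overlapped, and the difference between neuroblast-biased and *Mettl3* null input was a log2 value of 0.65 (SE 0.31, adjusted p = 0.17). In meRIP it stood at 86.3 and 58.0 CPM in wildtype, 139.9 and 96.8 in the neuroblast-biased and 74.2 and 76.5 in the *Mettl3* null brains. Both neuroblast-biased meRIP libraries were above the other 4, by a log2 difference of 0.71 from wildtype (SE 0.23, adjusted p = 0.015) and 0.70 from *Mettl3* null brains (SE 0.24, adjusted p = 0.020). Without neuroblast-biased meRIP replicate 1 these were 0.43 (adjusted p = 0.20) and 0.42 (adjusted p = 0.21). Without wildtype meRIP replicate 2 the first was 0.45 (adjusted p = 0.28), and the second missed the threshold without *Mettl3* null meRIP replicate 1 (0.57, adjusted p = 0.16) or replicate 2 (0.64, adjusted p = 0.073), without the filter (0.61, adjusted p = 0.092) and with library size scaling alone (0.17, adjusted p = 0.65). The meRIP to input ratio was 1.16 in wildtype, 1.57 in the neuroblast-biased and 1.42 in the *Mettl3* null brains and was called in no comparison.

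*lncRNA:roX1* (X:3857230-3862697, minus strand) and *lncRNA:roX2* (X:11579065-11580432, plus strand) are the noncoding RNAs of the dosage compensation complex and are made in males. They are known to act redundantly despite little shared sequence apart from short conserved elements. The roX box, searched as GUUNUACG on both strands, occurs 3 times on the transcribed strand of *lncRNA:roX1* and 2 times on its other strand, and 0.149% of 24235 windows of that length hold 3 or more. It occurs 2 times in *lncRNA:roX2* and 0 times on the other strand, and 0.104% of 96878 windows hold as many. These sites are shown as the sequence the pair has in common, with the box in capitals and U written as T.
roX1 X:3859033-3859040: atcaacGTTCTACGcagttc
roX1 X:3858966-3858973: ggaaacGTTATACGaatctt
roX1 X:3858915-3858922: gaaatcGTTATACGcctgag
roX2 X:11580079-11580086: ggtaacGTTTTACGcgcctt
roX2 X:11580144-11580151: tgaaatGTTATACGaaactt
Exons of *lncRNA:roX1* overlap other annotated features, *ec* among them, over 8.76% of their length, and those of *lncRNA:roX2* overlap none.

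The 2 *roX* RNAs differed in opposite directions in neuroblast-biased brains. *lncRNA:roX1* stood at 1245.6 and 1245.5 CPM in wildtype input, 1649.7 and 2494 in neuroblast-biased input and 1445 and 1437 in *Mettl3* null input. *lncRNA:roX2* stood at 49.7 and 61.4 CPM in wildtype input, 19.1 and 37.6 in neuroblast-biased input and 55.3 and 61.5 in *Mettl3* null input. Both neuroblast-biased libraries were the highest of the inputs for *lncRNA:roX1* and the lowest for *lncRNA:roX2*, and 57.0% of all genes had no overlap between neuroblast-biased and wildtype input. *lncRNA:roX1* was 1.73-fold higher than in wildtype input (log2 0.79, SE 0.15, adjusted p = 0.0027) and 1.52-fold higher than in *Mettl3* null input (log2 0.61, SE 0.13, adjusted p = 0.0047). The first was lost without wildtype input replicate 1 (0.79, adjusted p = 0.061). The second was lost without neuroblast-biased input replicate 2 (0.24, adjusted p = 0.052) or *Mettl3* null input replicate 2 (0.58, adjusted p = 0.058) and with edgeR (0.59, adjusted p = 0.059). *lncRNA:roX2* differed from wildtype by -0.97 (SE 0.40, adjusted p = 0.14) and from *Mettl3* null input by -0.98 (SE 0.37, adjusted p = 0.087), and DESeq2 called both (adjusted p = 0.040 and 0.023). Marker lists moved with these differences: summed neuroblast markers were 401 to 466 CPM in wildtype and *Mettl3* null input and 2128 to 2185 in neuroblast-biased input, neuron markers 2656 to 3221 and 866 to 935, and glia markers 429 to 810 and 91.5 to 93.0, and their part in the result was not tested.

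In meRIP the same opposite pattern was called for both RNAs. *lncRNA:roX1* stood at 1477 and 1685 CPM in wildtype, 3040.5 and 4585 in the neuroblast-biased and 1135 and 1382 in the *Mettl3* null meRIP. *lncRNA:roX2* stood at 112 and 264 CPM in wildtype, 17.0 and 38.1 in the neuroblast-biased and 43.0 and 113 in the *Mettl3* null meRIP. Replicates of *lncRNA:roX2* differed 2.24- to 2.61-fold within each meRIP group, the widest spread of replicates among the 8 genes in meRIP. Against wildtype, *lncRNA:roX1* rose 2.38-fold (log2 1.25, SE 0.27, adjusted p = 0.00040) and *lncRNA:roX2* fell by 2.77 on the log2 scale (SE 0.37, adjusted p = 7.8e-07) in neuroblast-biased meRIP, and both calls held in every alternative setting and every fit with a library left out. In neuroblast-biased meRIP all 5 neuron, all 4 glia and 5 of 6 fat body markers were also called lower than in either other genotype. Of the 5 tested salivary gland markers, 5 were called lower than in wildtype and 3 lower than in *Mettl3* null meRIP. All 5 neuroblast markers were called higher in both comparisons. The part of these lists in the *roX* differences was not tested. Against *Mettl3* null meRIP the log2 differences were 1.64 (SE 0.26, adjusted p = 1.6e-05) and -1.33 (SE 0.38, adjusted p = 0.0066). The second of these was lost with DESeq2 (adjusted p = 0.16) and without neuroblast-biased meRIP replicate 1 (-0.73, adjusted p = 0.15).

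*lncRNA:roX2* was also called for wildtype against *Mettl3* null meRIP, with wildtype higher (log2 1.44, SE 0.36, adjusted p = 0.0040), although the library values of the groups overlapped, with 112 CPM in the lower wildtype and 113 in the higher *Mettl3* null library. The summed salivary gland markers given above moved the same way, and their part in this result was not tested. The call was lost with DESeq2 (1.30, adjusted p = 0.29), without wildtype meRIP replicate 2 (0.79, adjusted p = 0.26) and without *Mettl3* null meRIP replicate 1 (0.56, adjusted p = 0.20). In the ratio of meRIP to input, *lncRNA:roX2* stood at 3.38 in wildtype, 0.973 in the neuroblast-biased and 1.33 in the *Mettl3* null brains. The fitted differences were 1.46 for wildtype against *Mettl3* null brains (SE 0.69, adjusted p = 0.29) and -1.76 for neuroblast-biased against wildtype brains (SE 0.81, adjusted p = 0.69), and neither was called. *lncRNA:roX1* had ratios of 1.27, 1.84 and 0.873 in the same order. Its difference between neuroblast-biased and *Mettl3* null brains was a log2 value of 1.08 (SE 0.29, adjusted p = 0.048). It was positive in all 22 other fits but passed the threshold in only 3 of 10 alternative settings and in 2 of 12 fits with a library left out, where adjusted p ran to 0.26.

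The level of *lncRNA:roX1* over that of *lncRNA:roX2* separated the neuroblast-biased libraries from the rest. The CPM ratio was 25.1 and 20.3 in wildtype input, 26.1 and 23.4 in *Mettl3* null input and 86.4 and 66.3 in neuroblast-biased input. In meRIP it was 13.2 and 6.40 in wildtype, 26.4 and 12.3 in *Mettl3* null and 179 and 120.3 in neuroblast-biased brains. The 4 neuroblast-biased libraries thus lay above the other 8, with no test made on this ratio. Counting error of *lncRNA:roX2* is largest in neuroblast-biased input replicate 1, where 145 counts gave 19.1 CPM with an exact 95% Poisson interval of 16.1 to 22.5.

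**Figure D4:**
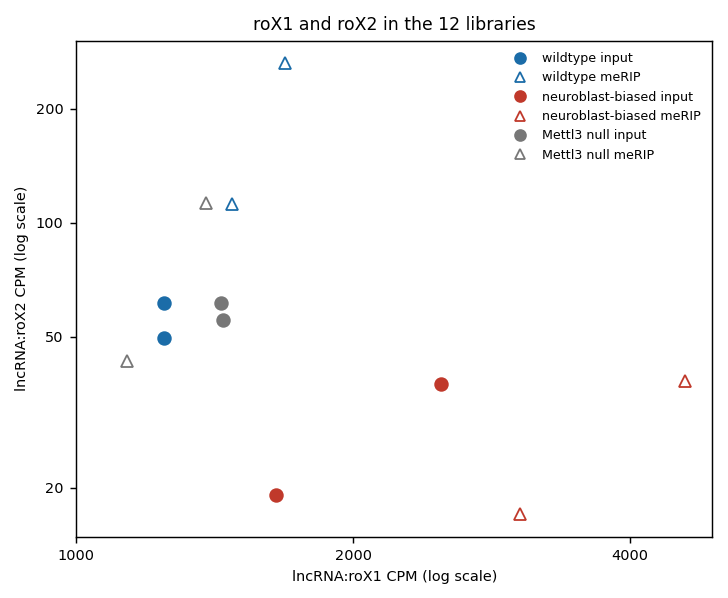
*lncRNA:roX1* CPM against *lncRNA:roX2* CPM, both on log axes, in the 12 libraries, with circles for input and triangles for meRIP. The 4 neuroblast-biased libraries have *lncRNA:roX1* at 1649.7 CPM or more and *lncRNA:roX2* at 38.1 CPM or less, and the other 8 have *lncRNA:roX2* at 43.0 CPM or more.

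Since *roX* RNAs are made in males, their level bears on the mix of sexes in a library, but it also follows any change of the *roX* genes themselves, and these cannot be told apart here. Both RNAs were present in all 12 libraries. Summed *roX* CPM over the wildtype input mean was 1.61 ± 0.47 in neuroblast-biased input (SD, n = 2), 1.15 ± 0.00094 in *Mettl3* null input and 1.36 ± 0.20 in wildtype meRIP, where library size scaling alone gave 0.776. Each SD covers only the spread between libraries of the named group and leaves out the error of the wildtype mean and of the scaling. Neither *roX* RNA was called between *Mettl3* null and wildtype input. The sum follows *lncRNA:roX1*, while *lncRNA:roX2* alone gave a lower level in neuroblast-biased input, so the 2 RNAs place that group at opposite ends. *roX* counts made up 0.842% and 0.878% of all counts on X-linked genes in wildtype input, 1.23% and 1.81% in neuroblast-biased input and 0.985% and 0.978% in *Mettl3* null input.

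Of 34 further genes of these pathways, in 5 lists, 33 were tested and *sisA*, an X-linked signal of the early embryo, had no counts in any library. Between neuroblast-biased and wildtype input, *dpn*, a neuroblast transcription factor that also represses *Sxl* in embryos, was higher (log2 1.56, SE 0.29, adjusted p = 0.0020) and *emc*, an inhibitor of bHLH transcription factors, was lower (-1.01, SE 0.19, adjusted p = 0.0024), and the other 31 were not called by limma-voom. edgeR called 2 of the 33 in that comparison and DESeq2 called 11. Over all 9423 genes limma-voom called 1260 there, edgeR 1295 and DESeq2 2545. Between *Mettl3* null and wildtype input limma-voom, edgeR and DESeq2 each called 0 of the 33, with 7, 3 and 7 genes at an unadjusted p under 0.05. Of all 9423 genes, 595, 347 and 890 were under 0.05 in the same order. Between neuroblast-biased and *Mettl3* null input limma-voom called 8 of the 33, edgeR 3 and DESeq2 12, where limma-voom called 17.2% of all genes. Higher by limma-voom were *pps*, *Ythdc1*, *dpn*, *vir*, *Hrb27C* and *da*, and lower were *emc* and *upd1*. The dosage compensation genes *msl-1*, *msl-3*, *mle*, *mof* and *Clamp* were not called in any input comparison by limma-voom or edgeR, each with at most 1 at an unadjusted p under 0.05, while DESeq2 called 1 in each comparison with neuroblast-biased input. Their median log2 fold change was -0.02 between neuroblast-biased and wildtype input against -0.17 over all genes. In meRIP 2 of these 5 were called for neuroblast-biased against wildtype brains, where 43.5% of all genes were. They were *mof*, the acetyltransferase of the complex, and *msl-3*, both higher (0.91 and 0.73, adjusted p = 0.0011 and 0.012). For wildtype against *Mettl3* null meRIP 1 was called, *mof*, lower (22.7% of all genes). For neuroblast-biased against *Mettl3* null meRIP 1 was called, *msl-1*, higher (38.8%). Of all 33, limma-voom called 7 higher and 3 lower for neuroblast-biased against wildtype meRIP, and 12 and 1 against *Mettl3* null meRIP.

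Between wildtype and *Mettl3* null meRIP, 11 of the 33 genes were higher and 2 lower, where 16.6% and 6.11% of all genes were. The 11 include *Mettl3* itself, the deleted gene, whose call follows from the genotype. The lists' median was 0.16 against -0.05 over all genes. *Unr*, the partner of Sxl in the block of *msl-2* translation, stood at 7326 and 14186 CPM in wildtype meRIP, 4695 and 9595 in neuroblast-biased meRIP and 1560.4 and 1946 in *Mettl3* null meRIP, while its 6 input values ran from 716 to 913. Its ratio of meRIP to input was higher than in *Mettl3* null brains in wildtype (log2 2.30, SE 0.48, adjusted p = 0.010) and in neuroblast-biased brains (1.87, SE 0.48, adjusted p = 0.036). The same ratio was higher in both genotypes for *Ythdc1*, the nuclear m6A reader (1.91 and 1.48, adjusted p = 0.0047 and 0.023), and for *fl(2)d*, a subunit of the methyltransferase complex needed for female *Sxl* splicing (2.18 and 2.35, adjusted p = 0.0041 and 0.0034). *Flacc*, another subunit, was lower in ratio for wildtype against *Mettl3* null brains (-1.07, SE 0.30, adjusted p = 0.045). In that ratio limma-voom called 3 of the 7 m6A writers and reader, edgeR 2 and DESeq2 3. Ratio values of these list genes under other scalings are not given here. *Stat92E*, the JAK/STAT transcription factor, and *dpn* were called in ratio for neuroblast-biased against *Mettl3* null brains (1.23 and 1.93, adjusted p = 0.044 and 0.033) by limma-voom. For wildtype against *Mettl3* null brains limma-voom called 0 of the 9 tested regulators of *Sxl* in ratio, with 4 at an unadjusted p under 0.05. edgeR called 1 and DESeq2 4. Of all 9918 genes, limma-voom called 559 with 1693 at an unadjusted p under 0.05, edgeR called 433 and DESeq2 885. Between neuroblast-biased and wildtype ratios limma-voom, edgeR and DESeq2 each called 0 of the 33, with 3, 4 and 5 genes at an unadjusted p under 0.05. Of all 9918 genes, 674, 684 and 766 were under 0.05 in the same order.

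Across the 12 libraries the genes whose log2 CPM most resembled that of *Sxl*, among 6335 genes whose mean reached 10 CPM, were *scyl* (Pearson r = 0.99), *gpp*, *Atf3*, *hth* and *Bsg*. For *lncRNA:roX1* they were *clu* (r = 0.97), *SREBP*, *hig*, *Rok* and *svp*, and for *lncRNA:roX2* they were *Rsf1* (r = 0.92), *brat*, *Dop1R2*, *FucTA* and *ATPsynC*. Among the members themselves *fru* and *lncRNA:roX1* were the most alike (r = 0.92), and *lncRNA:roX1* and *lncRNA:roX2* had r = -0.38. These values describe 12 libraries that share genotype and library kind and carry no test.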

How the data were processed

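The authors deposited 1 table of raw counts per gene (17807 genes, 12 libraries), with no normalisation. The study's methods name Trimmomatic for trimming, STAR for mapping to BDGP6 and, for meRIP, featureCounts for counting. kallisto is named for mapping input reads, yet the input columns hold whole numbers in the same table, so the counter behind them is uncertain. If it was kallisto, each meRIP to input ratio compares values from different quantification methods. Strand use and versions are not given in the sources used here. Groups and replicate numbers came from the sample labels, and no library pair was identical. Libraries are described by the study as biological replicates. Counts were filtered with filterByExpr (minimum count 10), scaled by TMM factors and tested with limma-voom (limma 3.58.1, edgeR 4.0.16, R 4.3.3) on a model of group means: 6 input libraries, 6 meRIP libraries, or all 12 for ratio contrasts, two-sided, with Benjamini-Hochberg adjustment over all genes of each of 9 comparisons. Printed CPM use TMM factors over 12 libraries. Adjusted p-values are from limma-voom unless edgeR or DESeq2 is named.

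The members and the lists were chosen with earlier results of these data known. Named genes were the 8 members, most but not all pathway-list genes that limma-voom called in a comparison, and some uncalled list genes. The 5 genes most like *Sxl*, *lncRNA:roX1* and *lncRNA:roX2* were named too. Pathway-list genes that were called but are not named with the results are *how*, *gro*, *x16*, *run*, *sc* and *Hakai*. Symbols and coordinates came from Ensembl 115 (BDGP6.54), which held 17710 of the identifiers. Motifs were searched in the members on both strands of the RefSeq Release 6 genome. Shares were taken over non-overlapping windows of equal length, read on the forward strand only. Windows were thus not matched to the strand of the gene, and transcribed-strand sites of minus-strand members do not count in them. The alternatives comprised DESeq2 1.42.0, edgeR's quasi-likelihood test, sample quality weights, 3 other scalings, 2 other filters, a replicate block, the compared groups alone, and leaving out each library. The scripts were tested on simulated data. Counts are not independent molecules, so precision from depth covers counting error only.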

Additional observations from a re-analysis of the deposited data

Results flagged for a closer look

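There are 2 results listed because a difference in the meRIP to input ratio between genotypes passed its own test. The first is *Sxl*, with a log2 difference of 1.30 between wildtype and *Mettl3* null brains. The second is *lncRNA:roX1*, with a log2 difference of 1.08 between neuroblast-biased and *Mettl3* null brains. The fits in which either lost its call are given with the results above.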

How the results depend on the processing

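Of 72 member values (8 genes in 9 comparisons), 20 were called. None of the 20 changed sign in any other fit, 14 were called in all 10 alternative settings and 10 in all fits with a library left out. Of 33 uncalled values, not printed above except for the *dsx* ratio difference between neuroblast-biased and wildtype brains, 22 changed sign in at least 1 other fit. With library size scaling alone *tra2* in wildtype (-0.93) was called lower than in *Mettl3* null meRIP, and the uncalled meRIP differences from *Mettl3* null brains became -0.017 for *fru* in wildtype and -0.14 for *Sxl* in neuroblast-biased brains. DESeq2 called 4 members between neuroblast-biased and wildtype input and 2 in the ratio of wildtype to *Mettl3* null brains. In that ratio the compared groups alone gave 2 and library size scaling 0. In the ratio of neuroblast-biased to *Mettl3* null brains, edgeR, sample quality weights, library size, upper-quartile and RLE scaling, no filter and the compared groups alone each gave 0. With a library left out, members called ran from 1 to 2 (neuroblast-biased against wildtype input), 1 to 3 (neuroblast-biased against *Mettl3* null input), 2 to 4 (neuroblast-biased against *Mettl3* null meRIP), 0 to 1 (ratio, wildtype against *Mettl3* null) and 0 to 3 (ratio, neuroblast-biased against *Mettl3* null). The cause of these losses was not tested. Over all genes DESeq2 called 2545, 144 and 2669 genes in the input comparisons where limma-voom called 1260, 24 and 1617 (edgeR 4 in the second), and 885 and 862 in the ratios to *Mettl3* null brains where limma-voom called 559 and 466 (library size scaling 275 in the second). In wildtype against *Mettl3* null meRIP, library size scaling called 3858 genes against 2156.

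Summed *roX* levels over wildtype input in *Mettl3* null input were 1.14 over X-linked counts, 1.15 by library size, 1.13 by upper quartiles and 1.15 by RLE. Over X-linked counts and by library size they were 0.721 and 0.776 in wildtype meRIP, 1.93 and 1.72 in neuroblast-biased meRIP and 0.785 and 0.839 in *Mettl3* null meRIP, against 1.36, 2.95 and 1.03 with TMM factors.

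The paper states that brain RNA of each genotype was divided between input and meRIP, so the 2 library kinds may be paired by design. Deviations of samples with the same replicate number were weakly correlated (-0.04 to 0.09). With 2 libraries a group such values cannot show that pairing is absent. The main fits, ratio contrasts included, did not use pairs. The replicate block used input and meRIP pairs in the ratio contrasts only. In the input and meRIP comparisons it added a term for replicate number shared by the genotypes, which does not bear on that pairing. With the replicate block, members called were 2, 0 and 3 in the input comparisons, 4, 5 and 6 in the meRIP comparisons and 1, 1 and 0 in the ratios. Over all genes the block called 1246, 24 and 1680 in input, 2693, 4277 and 4630 in meRIP and 647, 597 and 0 in the ratios. The main fits called 2156, 3682 and 4128 genes in meRIP, so calls over all genes rose there too. Precision is limited by 2 libraries a group and by input totals as low as 4220420.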
